A study of Mus musculus with 6 samples.

Results

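The genes described here code for the protein parts of the cytosolic ribosome. They were taken by symbol, as Rpl or Rps followed by a digit, with Rplp0, Rplp1, Rplp2 and Rpsa, and without S6 kinase genes and pseudogenes. This gave 86 of the 32285 genes in the files. By role, 46 code for proteins of the large (60S) subunit and 31 for proteins of the small (40S) subunit, 8 are paralogs (Rpl3l, Rpl7l1, Rpl10l, Rpl22l1, Rpl36al, Rpl39l, Rps27l and Rps27rt), and 1, Rps19bp1, codes for a protein that binds Rps19 and is no part of the mature ribosome.

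A ribosome holds 1 copy of most of these proteins, so their genes are expressed together and their mRNAs are among the commonest in any growing or secreting cell. The mRNAs begin with a run of pyrimidines, the 5′ terminal oligopyrimidine (TOP) motif, through which the kinase mTOR sets how much of each is translated. Because they are short, stable and translated in the cytoplasm, most of their copies lie outside the nucleus, and a nucleus prepared from tissue carries both its own unexported copies and whatever cytoplasm stays attached. Mitochondrial transcripts are made and kept in mitochondria, so the mitochondrial share of a nucleus's RNA is used here as a measure of attached cytoplasm.

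The data are 3 single-nucleus multiome libraries of retina from C57BL/6J mice, which read RNA and open chromatin in the same nuclei. WIF1-2w and WIF1-4w came from eyes given AAV2/2, a viral vector, to overexpress Wif1, a secreted inhibitor of WNT signalling, and were harvested at 2 and 4 weeks AVI, an abbreviation that the labels do not expand. Ctrl came from naïve wild-type eyes, which were given no vector. The study's text names a Wif1 vector with a GFP reporter and a Wif1 vector without it, both driven by CMV, a promoter active in most cell types, and does not tie either to a library. It also names a control vector (CMV-IRES-GFP), and eyes given that vector were not analysed here, so the vector itself and Wif1 cannot be told apart in any comparison with Ctrl. Each group had 2 eyes in 1 library, the ages are not given in the labels, and whether the eyes were pooled is not stated.

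There is therefore 1 library per group and no test of any difference between groups. Intervals given below are 95% intervals for counting error in these libraries only. After filtering, 8848 nuclei of WIF1-2w, 8921 of WIF1-4w and 7172 of Ctrl were kept, with a median of 800, 1200 and 1635 RNA molecules (unique molecular identifiers, UMIs) per nucleus. The libraries stood apart in mitochondrial share, with medians of 0.519% in WIF1-2w, 0.600% in WIF1-4w and 1.88% in Ctrl. WIF1-2w also held 3400 barcodes under 500 UMIs and WIF1-4w held 294, against 0 in Ctrl, and these were left out. Between 142 and 207 cell barcodes were shared by each pair of libraries, of which 80 to 114 were among kept nuclei.

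Nuclei were clustered and named from retinal marker genes. The classes with at least 50 nuclei in each library were rod-like (5284, 6018 and 4087 nuclei in WIF1-2w, WIF1-4w and Ctrl), bipolar-like (1584, 1610 and 1587), cone-like (477, 462 and 396), amacrine-like (237, 187 and 542), Müller-like (276, 225 and 98) and endothelial-like (55, 77 and 68). The clusters that held the rod-like nuclei differed for WIF1-2w: cluster 2, the largest in WIF1-4w and Ctrl, held 271 of WIF1-2w, 1817 of WIF1-4w and 1614 of Ctrl, and the rod-like nuclei of WIF1-2w lay mainly in clusters 1, 7 and 5. Amacrine-like nuclei of Ctrl lay mainly in cluster 8, which held 323 of them, against 53 of WIF1-2w and 88 of WIF1-4w. An unnamed cluster led by the antibody genes Igkc and Jchain held 572 nuclei of WIF1-2w, 8 of WIF1-4w and 0 of Ctrl. No ribosomal protein gene was among the variable genes used for clustering. The deposited RNA matrices hold UMI counts, which are not divided by gene length, and levels below are CPM, counts scaled to a common total of UMIs, summed over the nuclei of a class.

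Endothelial-like nuclei, from the lining of blood vessels, had the highest ribosomal protein RNA of the 6 classes in each library. Summed over the 86 genes it was 33454 CPM in WIF1-2w, 28443 CPM in WIF1-4w and 27677 CPM in Ctrl. In Ctrl, rod-like nuclei came next with 21307 CPM, then cone-like nuclei with 18308, Müller-like nuclei with 15629, amacrine-like nuclei with 14569 and bipolar-like nuclei with 13860. No counting intervals of neighbours in this order overlapped in Ctrl. In WIF1-4w the order was endothelial-like, rod-like with 14396 CPM, cone-like with 12271, amacrine-like with 11574, Müller-like with 11458 and bipolar-like with 10492, and the intervals of amacrine-like (11379 to 11770) and Müller-like nuclei (11227 to 11692) overlapped. In WIF1-2w rod-like nuclei had 14714 CPM, bipolar-like nuclei 12939, cone-like nuclei 12110, Müller-like nuclei 10019 and amacrine-like nuclei 8731. Bipolar-like nuclei thus stood last of these classes in WIF1-4w and Ctrl, and above cone-like, Müller-like and amacrine-like nuclei in WIF1-2w.

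As CPM, each neuronal class compared and Müller-like glia had less ribosomal protein RNA in both WIF1 libraries than in Ctrl. In rod-like nuclei the ratio to Ctrl was 0.691 (0.684 to 0.697) in WIF1-2w and 0.676 (0.670 to 0.681) in WIF1-4w. Cone-like nuclei had ratios of 0.661 and 0.670, close to those of rod-like nuclei. Müller-like nuclei had 0.641 (0.619 to 0.664) in WIF1-2w and 0.733 (0.709 to 0.758) in WIF1-4w, and amacrine-like nuclei had 0.599 and 0.794. Bipolar-like nuclei had the ratio nearest 1 of these at 2 weeks, 0.934 (0.923 to 0.944), with 0.757 (0.749 to 0.765) in WIF1-4w. Endothelial-like nuclei went the other way, with 1.21 (1.16 to 1.26) in WIF1-2w and 1.03 (0.988 to 1.07) in WIF1-4w, but as UMIs per nucleus the WIF1-2w ratio was 0.924 (0.884 to 0.965), below 1. Also as UMIs per nucleus, the amacrine-like ratio in WIF1-4w was 0.984 (0.965 to 1.0036), an interval that took in 1. The amacrine-like ratios rest on a less certain class. Cluster 8, which held 323 of the 542 amacrine-like nuclei of Ctrl, had 8 rod markers enriched beside 9 amacrine markers. Taken singly, the 3 amacrine-like clusters had CPM ratios of 0.616 to 0.645 in WIF1-2w and 0.623 to 0.837 in WIF1-4w.

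**Figure D1:**
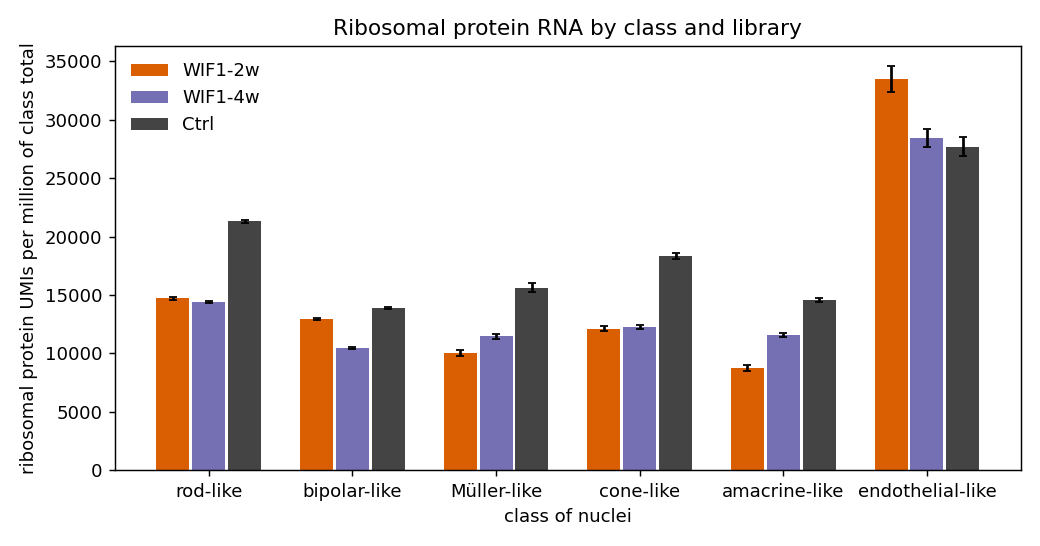
Summed ribosomal protein RNA (CPM, y axis) by class of nuclei (x axis) in WIF1-2w, WIF1-4w and Ctrl, with exact Poisson intervals as error bars. In rod-like nuclei WIF1-2w and WIF1-4w sit at 14714 and 14396 CPM and Ctrl at 21307, and endothelial-like nuclei are highest in each library.

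Smaller classes were counted without a comparison of members. Microglia or macrophage-like nuclei had 35487 CPM in 96 nuclei of WIF1-2w, 12937 CPM in 15 nuclei of WIF1-4w and 20791 CPM in 15 nuclei of Ctrl. Pericyte or smooth muscle-like nuclei had 19643, 22107 and 28283 CPM in 39, 47 and 43 nuclei of WIF1-2w, WIF1-4w and Ctrl. Horizontal-like nuclei had 7609 CPM in 20 nuclei of WIF1-2w and 11954 CPM in 25 nuclei of Ctrl, the lowest level of the named classes in both.

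Per nucleus the same order held in rod-like nuclei: the median share of UMIs from these genes was 1.35% in WIF1-2w, 1.26% in WIF1-4w and 1.67% in Ctrl. In bipolar-like nuclei it was 1.17%, 0.873% and 1.13%, so the typical bipolar-like nucleus of WIF1-2w was level with that of Ctrl. The nuclear-retained RNA Malat1 went the other way: it had 48481, 46467 and 38659 CPM in rod-like nuclei of WIF1-2w, WIF1-4w and Ctrl, and 34301, 29437 and 23825 CPM in bipolar-like nuclei. In Müller-like nuclei Malat1 had 82510, 67151 and 56982 CPM. Its part in the ribosomal protein result was not tested. The level of Gm42418, a locus that collects reads of ribosomal RNA sequence, was 394, 2442 and 5445 CPM in rod-like nuclei of WIF1-2w, WIF1-4w and Ctrl.

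In rod-like nuclei nearly the whole family was lower. A member was compared where it had at least 30 UMIs in the higher library, and called where its ratio was at or past 1.5-fold. Of the 86 genes, 83 could be compared, and Rpl3l, Rpl10l and Rpl39l could not. In WIF1-2w, 38 of the 83 were called lower than Ctrl and 0 higher, against 6.62% lower and 11.9% higher of all 10484 genes counted the same way. In WIF1-4w, 39 were called lower and 0 higher, against 4.66% and 2.19% of 10755 genes. Both shares lower were well above those of all genes. The ratio was under 1 for 74 of the 83 in WIF1-2w and for 82 of the 83 in WIF1-4w. The median log2 ratio was −0.57 and −0.58, against 0.05 and 0.04 over all genes.

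The median was nearly the same at both times, but the members were spread wider at 2 weeks. The standard deviation of the log2 ratio over members was 0.39 in WIF1-2w and 0.18 in WIF1-4w, and the range in WIF1-2w was −1.45 to 0.35. At a stricter 2-fold, 14 members were lower in WIF1-2w and 0 in WIF1-4w, against 1.76% and 0.632% of all genes. Large- and small-subunit genes were alike: the median was −0.56 for 60S genes and −0.59 for 40S genes in WIF1-2w, and −0.59 and −0.58 in WIF1-4w, with 21 and 16 of them called lower in WIF1-2w and 23 and 14 in WIF1-4w. The pattern over members in WIF1-2w was shared by other classes. Pearson correlations of rod-like with bipolar-, cone-, Müller- and amacrine-like log2 ratios were 0.86, 0.78, 0.78 and 0.76. In WIF1-4w they were 0.45, 0.30, 0.47 and 0.52. Classes at one time share a library, so a pattern of that library and changes of single classes cannot be told apart.

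**Figure D2:**
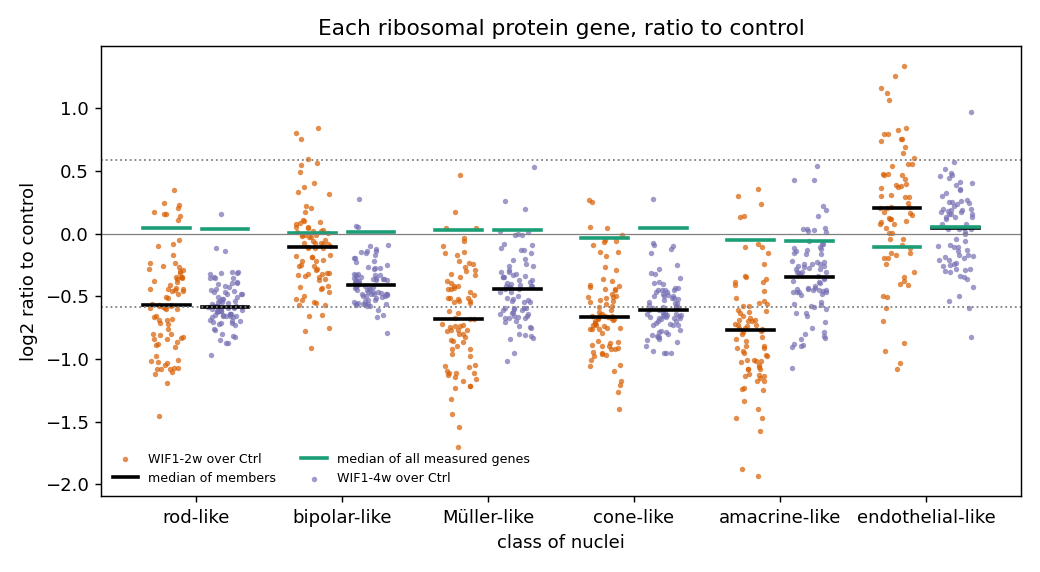
Log2 ratio to Ctrl (y axis) of each member in WIF1-2w and WIF1-4w, by class of nuclei (x axis), with each point a gene and a bar at the median. Members of rod-like nuclei centre near −0.57 in both libraries and spread wider in WIF1-2w.

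Among the members with most UMIs over all kept nuclei were Rplp1, Rpl41, Rpl9, Rps15 and Rpl13. Rplp1, a protein of the stalk where elongation factors dock, had 349 CPM in WIF1-2w, 401 in WIF1-4w and 705 in Ctrl rod-like nuclei, ratios of 0.495 (0.465 to 0.526) and 0.569 (0.542 to 0.598). Rpl9 and Rpl13 of the 60S subunit had 289, 326 and 517 CPM and 240, 261 and 395 CPM in WIF1-2w, WIF1-4w and Ctrl. Rps15 of the 40S subunit had 265, 350 and 496 CPM. For Rplp1, Rpl9, Rpl13 and Rps15 both WIF1 libraries were below Ctrl and the intervals of their ratios lay below 1. Rpl41, the smallest ribosomal protein, differed between the times: it had 542 CPM in WIF1-2w, 329 in WIF1-4w and 482 in Ctrl, ratios of 1.13 (1.06 to 1.19) and 0.682 (0.645 to 0.722).

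The other ends of the range were as follows. Rps23, which lines the decoding centre of the 40S subunit, had the lowest ratio at 2 weeks, with 82.4 CPM in WIF1-2w, 142 in WIF1-4w and 225 in Ctrl, ratios of 0.366 (0.323 to 0.413) and 0.631 (0.580 to 0.687). Rpl7 had 143, 209 and 327 CPM, ratios of 0.437 and 0.639. Rpl13a, a 60S protein that in human cells is also released from the ribosome to silence inflammatory mRNAs, had 169, 227 and 367 CPM, ratios of 0.461 and 0.620. These genes stood lower at 2 than at 4 weeks, and both times stood below Ctrl.

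At the upper end, Rpl37, a small 60S protein, had 267 CPM in WIF1-2w, 158 in WIF1-4w and 209 in Ctrl, ratios of 1.28 (1.17 to 1.39) and 0.758 (0.697 to 0.824). Rpl38, a 60S protein needed in mouse embryos for translation of Hox mRNAs, had 242, 155 and 207 CPM, ratios of 1.17 and 0.748. Rpl37 and Rpl38 were thus above Ctrl at 2 weeks and below it at 4 weeks. Rpl35, which sits at the exit of the peptide tunnel, had 64.5, 60.6 and 54.4 CPM, ratios of 1.18 (0.999 to 1.40) and 1.11 (0.957 to 1.30), and its intervals did not separate it from Ctrl. It was the only member with a ratio above 1 in WIF1-4w.

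At 4 weeks the lowest rod-like ratios belonged to Rps27rt, Rps4x and Rpl23. Rps27rt, a retrogene-type copy of Rps27, was rare, with 29 UMIs in WIF1-2w, 47 in WIF1-4w and 71 in Ctrl, and its ratio in WIF1-4w was 0.510 (0.345 to 0.748). Rps4x, the X-linked copy of a 40S gene, had 93.9, 104 and 191 CPM in WIF1-2w, WIF1-4w and Ctrl, ratios of 0.491 and 0.545. Rpl23, which besides its place in the 60S subunit can bind the p53 regulator Mdm2, had 199, 165 and 302 CPM, ratios of 0.660 and 0.545. Next to Rpl35, the highest at 4 weeks were Rpl7l1 at 0.925 (0.769 to 1.11) and Rps29 at 0.908 (0.851 to 0.969).

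Of the paralogs counted in rod-like nuclei, 4 stood closer to 1 than their partners at 2 weeks, and Rps27rt, at 0.542, stood further from 1 than Rps27. Rpl22l1 had ratios of 0.836 and 0.762 in WIF1-2w and WIF1-4w, against 0.663 and 0.609 for Rpl22. Rpl36al had 1.1175 and 0.784, against 0.739 and 0.672 for Rpl36a. Rps27l had 0.968 and 0.636, against 0.664 and 0.806 for Rps27, so its order was turned round at 4 weeks. Rpl7l1 had 0.852 at 2 weeks, where Rpl7 had 0.437. Rpl3l, the muscle form of Rpl3, had 1, 0 and 2 UMIs in rod-like nuclei of WIF1-2w, WIF1-4w and Ctrl, Rpl39l, known from testis, had 0, 1 and 0, and Rpl10l, also a testis gene, had 0 in each, while their partners Rpl3, Rpl39 and Rpl10 had 485, 682 and 261 UMIs in WIF1-2w alone. Rps19bp1 had 14.2, 15.1 and 21.0 CPM, ratios of 0.676 and 0.717. Near-identical copies and pseudogenes of this family can take reads from one another, so values of single genes are less certain than the sum.

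In bipolar-like nuclei the members split at 2 weeks and were lower together at 4 weeks. In WIF1-2w, 5 of 83 members were called lower and 4 higher than Ctrl, against 7.75% and 7.67% of all 11676 genes, so the shares were near the background in both directions. In WIF1-4w, 4 were called lower and 0 higher, against 3.65% and 1.58%. There too the share called was near the background, although the median log2 ratio was −0.41, against 0.02 over all genes, and 80 of 83 ratios were under 1. That background in WIF1-4w depended on the UMI minimum. With at least 100 UMIs, 4 of 81 members were called lower, against 1.48% of 8373 genes, a share above the background. With at least 10 UMIs, 4 of 83 were, against 6.99%. At 2 weeks the median was −0.11, against 0.00 over all genes.

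The genes at the ends were partly those of rod-like nuclei. In WIF1-2w the lowest were Rpl3, next to the peptidyl transferase centre, with 118 CPM against 221 in Ctrl, a ratio of 0.532, Rps23 with 83.6 against 143, and Rps6, the target of the S6 kinases, with 102 against 172. The highest were the small 40S proteins Rps21, with 285 CPM against 159 in Ctrl and a ratio of 1.79 (1.64 to 1.95), and Rps28, with 144 against 82.4, and then Rpl37, with 239 against 142. In WIF1-4w these 3 genes had 107, 77.5 and 118 CPM, all below Ctrl, although the interval of the ratio of Rps28 (0.825 to 1.07) took in 1. The lowest ratios in WIF1-4w were 0.577 for Rps12, 0.631 for Rplp1 and 0.639 for Rpl22, and the highest were 1.21 for Rpl35, 1.04 for Rps27rt and 1.04 for Rpl18.

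Of the 10 bipolar-like clusters, only cluster 12 had a summed ratio above 1 at 2 weeks. It was taken apart after this was seen. Its member counts come from the same UMIs and are no separate support. Cluster 12, which held 574 nuclei of WIF1-2w, 602 of WIF1-4w and 561 of Ctrl and is marked by the rod bipolar gene Prkca, had 13569 CPM in WIF1-2w, 9722 in WIF1-4w and 11260 in Ctrl. Its ratio was 1.21 (1.18 to 1.23) in WIF1-2w and 0.863 (0.847 to 0.880) in WIF1-4w. The other 9 bipolar-like clusters had ratios of 0.709 to 0.933 in WIF1-2w, and all 10 were below 1 in WIF1-4w, from 0.665 to 0.863. Without cluster 12, bipolar-like nuclei had 12531, 10952 and 15241 CPM in WIF1-2w, WIF1-4w and Ctrl, ratios of 0.822 and 0.719. In cluster 12, 0 of 82 members were called lower and 13 higher in WIF1-2w, against 9.26% and 9.49% of all genes there. In the other clusters 13 of 83 were called lower and 1 higher, against 7.8% and 8.85%. In WIF1-4w cluster 12 had 3 of 82 lower and 0 higher, against 4.03% and 3.62%, and the others had 22 of 83 lower and 0 higher, against 4.38% and 2.01%. The difference between these clusters was not tested.

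Müller-like, cone-like and amacrine-like nuclei had larger shares of members called lower than bipolar-like nuclei. In Müller-like nuclei 43 of 79 members were called lower and 0 higher in WIF1-2w, against 11.1% and 15.4% of all genes, and 29 of 80 lower and 0 higher in WIF1-4w, against 6.05% and 9.59%. Rps23 had 81.5 CPM in WIF1-2w, 152 in WIF1-4w and 265 in Ctrl, the lowest ratio at 2 weeks (0.307, 0.219 to 0.429), followed by Rps6 at 0.344 and Rpl17 at 0.370. The highest at 2 weeks were Rpl39, a small protein of the peptide tunnel, at 1.39 (0.895 to 2.20), Rpl38 at 1.13 and Rpl37 at 1.03. At 4 weeks the lowest were Rps25 at 0.496, Rps28 at 0.517 and Rpl23 at 0.558, and the highest were Rpl35 at 1.45 (0.828 to 2.67), Rpl39 at 1.20 and Rps13 at 1.15. The intervals of those above 1 all took in 1, with 98 Müller-like nuclei in Ctrl.

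In cone-like nuclei 47 of 80 members were called lower and 0 higher in WIF1-2w, against 13.4% and 9.84% of all genes, and 44 of 81 lower and 0 higher in WIF1-4w, against 8.19% and 5.49%. Amacrine-like nuclei had 59 of 82 lower and 0 higher in WIF1-2w, against 20.7% and 11.8%. In WIF1-4w they had 17 of 82 lower, against 23.6% of all genes, a share below the background, and 0 higher, against 14.5%. The median log2 ratio over members was −0.66 and −0.60 in cone-like nuclei and −0.77 and −0.35 in amacrine-like nuclei at 2 and 4 weeks.

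Endothelial-like nuclei had 6 of 73 members called lower and 15 higher in WIF1-2w, against 20.2% and 10.8% of all 1146 genes counted there. In WIF1-4w they had 2 of 75 lower and 1 higher, against 8.55% and 16.4%. At 2 weeks the higher ones included Rpl38, with 879 CPM against 348 in Ctrl (2.52, 1.80 to 3.56), Rps26 at 2.39 and Rps21 at 2.24, the genes that were also highest or above Ctrl in bipolar-like nuclei. Rplp0, the core of the stalk, was called lower there, with 115 CPM against 242, from 12 and 41 UMIs.

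**Figure D3:**
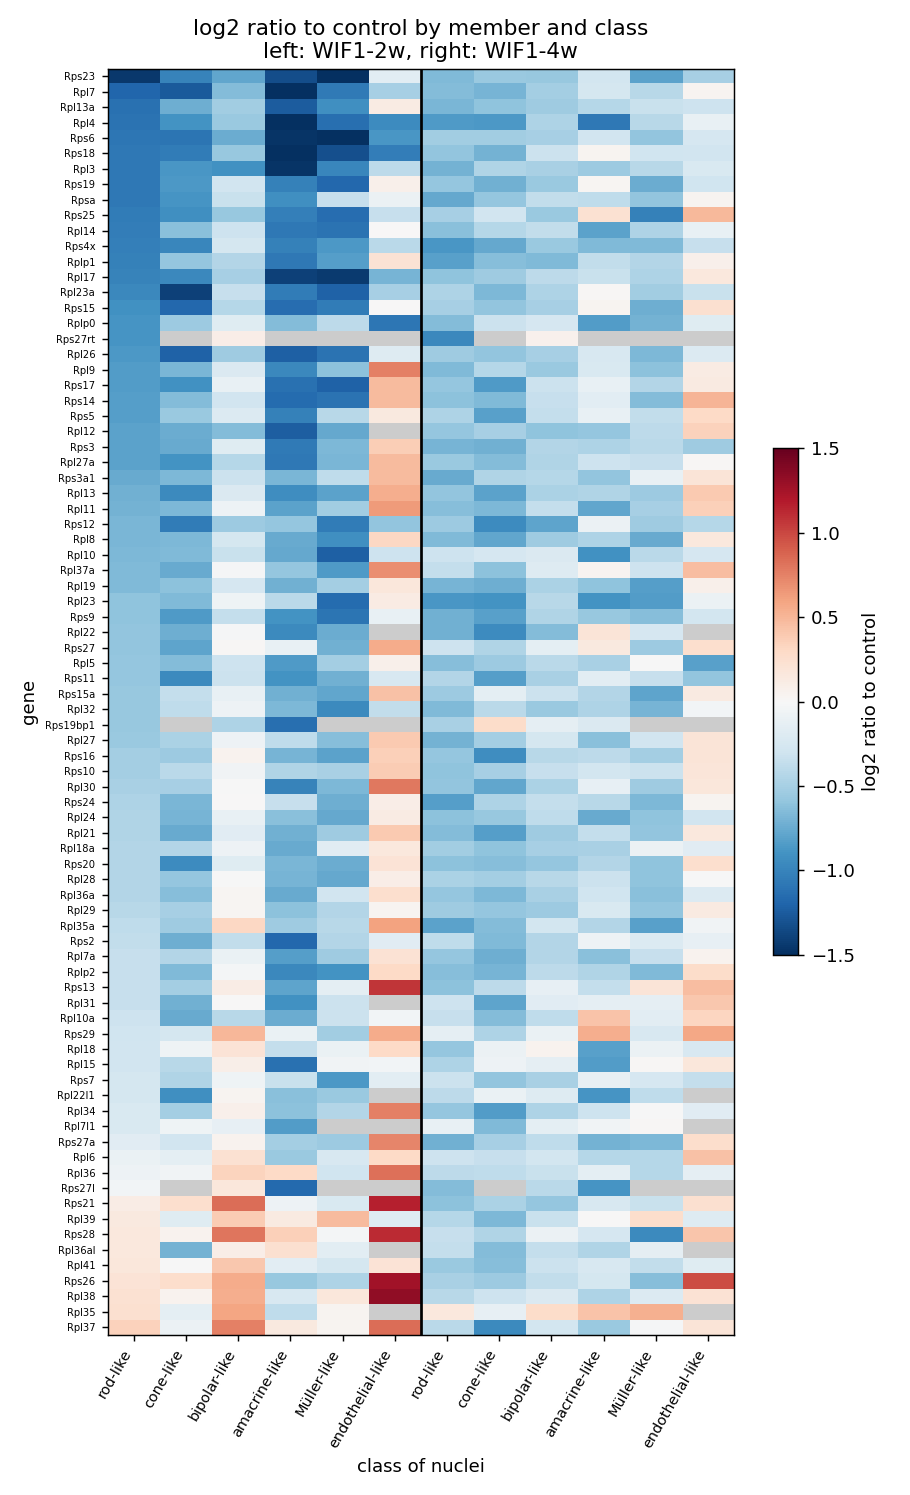
Log2 ratio to Ctrl by member (rows, ordered by the rod-like ratio in WIF1-2w) and class of nuclei (columns), with WIF1-2w in the left block, WIF1-4w in the right block and grey where under 30 UMIs. 1 member is not shown. The bottom rows, which include Rpl37, Rpl38, Rps26 and Rps28, are pale or red in several classes at 2 weeks and mostly blue at 4 weeks.

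Ribosomal protein RNA was higher in rod-like and bipolar-like nuclei of higher mitochondrial share in every library, and the rod-like ratios to Ctrl were lowest where that share was highest. Nuclei were set in bins of mitochondrial share, and levels were taken as CPM of the UMIs that are not mitochondrial. In rod-like nuclei of at most 0.25% mitochondrial UMIs the level was 13235 in WIF1-2w, 12781 in WIF1-4w and 13711 in Ctrl, ratios of 0.965 (0.939 to 0.992) and 0.932 (0.907 to 0.958). In nuclei of 5 to 10% it was 22229, 20785 and 34987, ratios of 0.635 (0.614 to 0.657) and 0.594 (0.582 to 0.606). The bins between lay between: 0.938, 0.914, 0.922 and 0.789 in WIF1-2w, and 0.898, 0.888, 0.854 and 0.718 in WIF1-4w. The level of the highest bin was 1.68 times that of the lowest in WIF1-2w, 1.63 times in WIF1-4w and 2.55 times in Ctrl.

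The libraries also differed in how many rod-like nuclei fell in each bin. In WIF1-2w 43.5% of rod-like nuclei had at most 0.25% mitochondrial UMIs, in WIF1-4w 29.5% and in Ctrl 8.91%, while 3.71%, 6.63% and 20.8% had over 5%. Weighted to the bin make-up of Ctrl, the rod-like ratio was 0.791 (0.780 to 0.802) in WIF1-2w and 0.744 (0.737 to 0.751) in WIF1-4w, against 0.677 and 0.665 without weighting on the same scale. The ratio was thus nearer 1 at equal mitochondrial share and still below it. Bins of equal mitochondrial share are not shown to hold equal cytoplasm, since the mitochondrial RNA of whole cells was not measured here.

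**Figure D4:**
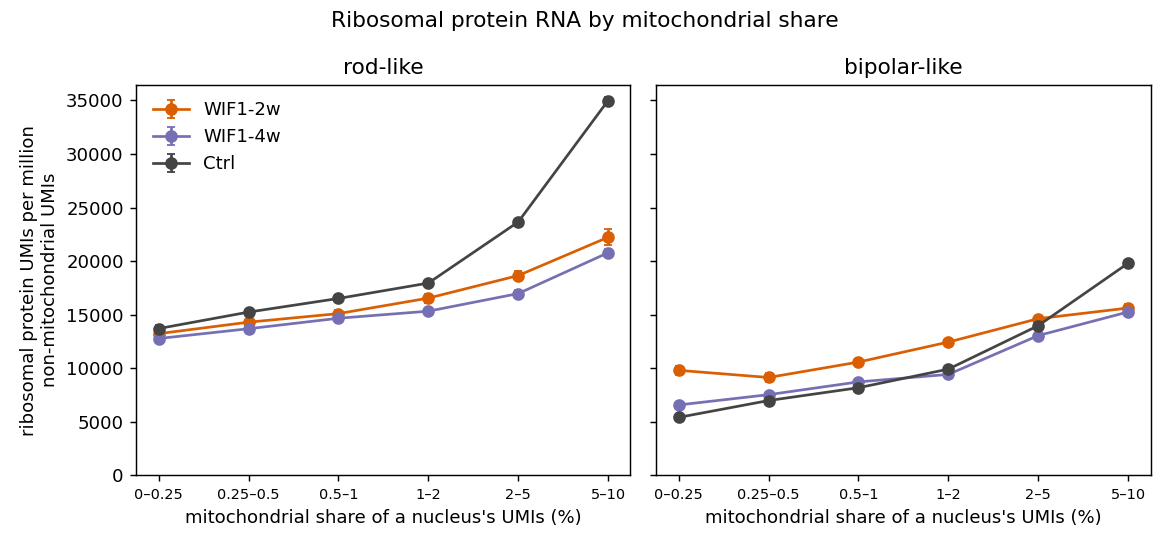
Ribosomal protein RNA as CPM of non-mitochondrial UMIs (y axis) by bin of mitochondrial share (x axis) in rod-like and bipolar-like nuclei of WIF1-2w, WIF1-4w and Ctrl, with exact Poisson intervals. In rod-like nuclei the libraries start between 12781 and 13711 in the lowest bin and part to 20785 to 34987 in the highest.

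Single members followed the sum. Within Ctrl, 79 of 83 members were called higher in rod-like nuclei of over 2% mitochondrial UMIs than in those of at most 0.5%, with a median log2 ratio of 1.06, against 12.6% of all genes called higher. Within WIF1-2w it was 36 of 82 with a median of 0.56, and within WIF1-4w 29 of 82 with a median of 0.51, against 8.95% and 9.34%. Between libraries, in rod-like nuclei of at most 0.5%, 9 of 82 members were called lower and 4 higher in WIF1-2w than in Ctrl, against 6.27% and 13.1% of all genes, and 0 lower and 1 higher in WIF1-4w, against 3.31% and 4.37%. In nuclei of over 2%, 43 of 83 were called lower in WIF1-2w and 59 of 83 in WIF1-4w, with 0 higher in both, against 11.9% and 6.76% lower and 11.6% and 2.67% higher of all genes. The member calls of rod-like nuclei thus lay mainly among nuclei rich in mitochondrial RNA.

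The clusters of rod-like nuclei differed in the same way. Rod cluster 4, whose leading genes included Gnat1, Gngt1, Pde6g, Rcvrn and Rom1, all genes of the phototransduction cascade or the outer segment, made up 6.96% of rod-like nuclei in WIF1-2w, 10.7% in WIF1-4w and 21.6% in Ctrl. It had the highest summed mitochondrial share of the rod clusters, 2.03%, 2.99% and 4.52%. Ribosomal protein RNA there was 20753, 20907 and 33978 CPM in WIF1-2w, WIF1-4w and Ctrl. The ratios of 0.611 (0.594 to 0.627) and 0.615 (0.604 to 0.627) were the lowest of the 8 rod-like clusters compared. Of the ribosomal protein genes there, 49 of 82 were called lower in WIF1-2w and 54 of 82 in WIF1-4w, with 0 higher in both, against 13.4% and 6.87% lower and 12.2% and 4.09% higher of all genes. All 8 clusters compared were below 1 at both times, up to 0.887 in WIF1-2w and 0.832 in WIF1-4w. Rod-like cluster 29, with 168 nuclei of WIF1-2w and 25 of WIF1-4w, had fewer than 20 in Ctrl and was not compared. Without cluster 4, rod-like nuclei had 14246, 13608 and 17557 CPM, ratios of 0.811 and 0.775. The members called lower then numbered 22 of 83 in WIF1-2w, with 1 higher, and 7 of 83 in WIF1-4w, with 0 higher, against 6.48%, 11.4%, 3.31% and 2.15% of all genes.

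In bipolar-like nuclei the ratio to Ctrl crossed 1 along the mitochondrial share. In nuclei of at most 0.25% the level was 9810 in WIF1-2w, 6581 in WIF1-4w and 5422 in Ctrl, ratios of 1.81 (1.69 to 1.94) and 1.21 (1.14 to 1.29). In nuclei of 5 to 10% it was 15627, 15259 and 19803, ratios of 0.789 (0.771 to 0.807) and 0.771 (0.756 to 0.785). Weighted to the bin make-up of Ctrl, the bipolar-like ratio was 0.964 (0.952 to 0.976) in WIF1-2w and 0.868 (0.858 to 0.878) in WIF1-4w. Gene by gene, in nuclei of at most 0.5%, 34 of 70 were called higher and 1 lower in WIF1-2w, against 18.4% and 13.4% of all genes, and 7 of 80 were called higher and 1 lower in WIF1-4w, against 12.6% and 4% of all genes, a share below the background for higher calls. In nuclei over 2%, 10 of 82 members were called lower and 4 higher in WIF1-2w, against 11.9% and 7.94% of all genes, and 3 lower and 0 higher in WIF1-4w, against 4.63% and 1.4%, so the calls there were near or below the background. In WIF1-2w both cluster 12 and the other bipolar clusters were above Ctrl below 1% mitochondrial UMIs, with ratios of 1.72 and 1.22, and at 5 to 10% their ratios were 0.973 (0.943 to 1.0029, taking in 1) and 0.686 (0.658 to 0.716).

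The other classes had thinner bins. Weighted ratios were 0.680 and 0.736 in cone-like nuclei in WIF1-2w and WIF1-4w, 0.630 and 0.746 in amacrine-like nuclei and 1.37 and 1.05 in endothelial-like nuclei. In Müller-like nuclei they were 0.881 and 0.874. The weighted ratios of all these classes rest in part on bins of fewer than 20 nuclei. The 5 to 10% bin held 6 amacrine-like nuclei in WIF1-4w. Of the endothelial-like bins in Ctrl only that of 2 to 5%, with 39 nuclei, passed 20, and that of 0.25 to 0.5% was empty and left out. Cone-like nuclei had similar mitochondrial shares over 5% at 2 weeks and in Ctrl (26.6% and 27.8% of nuclei), and their weighted ratio at 2 weeks was close to the plain ratio of 0.661.

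Other genes of translation were read beside the ribosomal proteins. Of 23 other TOP-type translation genes, 10 were called lower and 1 higher in rod-like nuclei of WIF1-2w, against 6.62% and 11.9% of all genes. In WIF1-4w 7 were called lower and 0 higher, against 4.66% and 2.19%. The medians were −0.57 and −0.53. Eef1a1, the elongation factor that brings tRNA to the ribosome, had 258 CPM in WIF1-2w, 261 in WIF1-4w and 493 in Ctrl, ratios of 0.523 and 0.530. Tpt1, a translationally controlled protein, had 159, 296 and 478 CPM, ratios of 0.333 and 0.618. Fau, which codes for Rps30 fused to a ubiquitin-like protein and is missed by the symbol rule, had 348, 307 and 422 CPM, ratios of 0.826 and 0.727. Nap1l1 had ratios of 0.673 and 0.909.

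Of 35 genes of ribosome biogenesis 2 were called lower and 2 higher in rod-like nuclei of WIF1-2w, against 6.62% and 11.9% of all genes. In WIF1-4w 1 was called lower and 0 higher, against 4.66% and 2.19%. Each share was below that of all genes, and the medians were 0.12 and −0.07. Ncl, the main nucleolar protein nucleolin, had ratios of 0.654 and 0.951, and Las1l, which cuts the precursor of large-subunit RNA, had 2.22 (2.03 to 2.42) and 1.23 (1.13 to 1.35). Of 18 genes of RNA polymerase I, which makes ribosomal RNA, 1 was called lower and 5 higher in WIF1-2w, against 6.62% and 11.9% of all genes, and 0 in either direction in WIF1-4w, against 4.66% and 2.19%. Its factors Ubtf and Taf1d had ratios of 1.04 and 1.37 in WIF1-2w and 0.955 and 1.47 in WIF1-4w. The 78 genes of the mitochondrial ribosome, which are transcribed in the nucleus, had medians of 0.09 and −0.22 in rod-like nuclei, with 3 lower and 5 higher in WIF1-2w and 4 lower and 0 higher in WIF1-4w. These counts in rod-like nuclei were below or near the same shares of all genes. Mrps33 had ratios of 0.980 and 0.894 there, and Mrpl41 1.27 and 0.927. In cone-like nuclei of WIF1-4w, 22 of 72 mitochondrial ribosome genes and 8 of 26 biogenesis genes were called lower, against 8.19% of all genes. There 1 and 0 were called higher, against 5.49%. Bipolar-like nuclei of WIF1-4w had 0 of 78 and 1 of 35 lower, against 3.65%, and 0 higher in both. Amacrine-like nuclei of WIF1-2w had 18 of 75 and 10 of 27 lower, against 20.7%, and 1 and 2 higher, against 11.8%.

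Other short genes were read beside the members. The members are short, with a median span of 3179 bp, against 15359 bp over all genes. Other genes under 2 kb had a median log2 ratio of 0.31 in rod-like nuclei of WIF1-2w, over 251 genes, and of −0.22 in WIF1-4w, over 249 genes. Other genes of 2 to 5 kb, the range that holds the members' median, had medians of 0.22 over 788 genes and −0.18 over 811 genes. In WIF1-4w 19.3% of the genes under 2 kb and 11.2% of those of 2 to 5 kb were called lower, against 4.66% of all genes. The members' medians of −0.57 and −0.58 stood below these at both times.

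The promoters were read in the same nuclei as open chromatin. Ribosomal protein genes have short promoters, often without a TATA box, in which transcription starts at a C within a pyrimidine run that then becomes the TOP motif of the mRNA. Sequences below are the mouse reference from RefSeq on GRCm38.p6, from 120 bases before to 30 bases after the annotated start, with the longest unbroken run of C and T within 25 bases of the start in capitals. They are shown for the 3 members with the lowest and the 3 with the highest rod-like RNA ratio in WIF1-2w among those whose RefSeq start lies within 100 bases of the start used with the files, to set side by side promoters whose RNA stood far apart. Rpl13a (chr7:45128716-45128865, minus strand), Rpl4 (chr9:64173267-64173416, plus strand) and Rps6 (chr4:86857338-86857487, minus strand) had RNA ratios of 0.461, 0.465 and 0.473. Rpl37 (chr15:5116493-5116642, plus strand), Rpl38 (chr11:114668460-114668609, plus strand) and Rpl36al (chr12:69184038-69184187, minus strand) had 1.28, 1.17 and 1.1175.
Rpl13a: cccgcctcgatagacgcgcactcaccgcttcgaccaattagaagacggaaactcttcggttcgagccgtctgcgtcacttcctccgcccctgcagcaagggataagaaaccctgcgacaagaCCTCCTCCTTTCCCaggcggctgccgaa
Rpl4: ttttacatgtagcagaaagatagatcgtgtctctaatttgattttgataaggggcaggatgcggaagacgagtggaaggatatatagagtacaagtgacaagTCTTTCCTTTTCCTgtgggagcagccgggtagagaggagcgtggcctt
Rps6: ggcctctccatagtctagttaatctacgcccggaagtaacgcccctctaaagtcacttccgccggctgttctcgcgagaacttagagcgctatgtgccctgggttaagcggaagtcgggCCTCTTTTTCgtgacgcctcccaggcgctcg
Rpl37: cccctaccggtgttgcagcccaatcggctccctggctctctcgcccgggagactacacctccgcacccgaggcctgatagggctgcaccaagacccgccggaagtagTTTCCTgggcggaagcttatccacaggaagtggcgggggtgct
Rpl38: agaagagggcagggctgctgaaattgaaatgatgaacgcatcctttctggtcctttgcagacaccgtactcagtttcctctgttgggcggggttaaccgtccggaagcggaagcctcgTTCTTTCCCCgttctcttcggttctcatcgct
Rpl36al: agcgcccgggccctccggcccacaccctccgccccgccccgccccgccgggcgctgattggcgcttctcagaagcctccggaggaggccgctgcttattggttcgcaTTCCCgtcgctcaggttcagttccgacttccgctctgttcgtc

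The capitals of Rpl13a and Rpl4 are 14 bases long, those of Rps6 and Rpl38 10, those of Rpl37 6 and those of Rpl36al 5. In Rpl13a the run begins at base 3 of the annotated transcript, and in Rps6 and Rpl38 it crosses the start. In Rpl4, Rpl37 and Rpl36al it ends before the start, so the annotated start and the run do not meet there. Rps6, Rpl37 and Rpl38 hold CCGGAAG, the core of the site bound by ETS factors, in the 300 bases of the RefSeq promoter, and the other 3 do not. Runs of 10 bases or more thus occur in Rpl13a, Rpl4 and Rps6, of low ratio, and in Rpl38, of high ratio, but not in Rpl37 and Rpl36al. So few picked genes cannot show whether run length goes with the ratio.

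Over the family, 66 of 86 members had a promoter in the RefSeq table. A run of C and T of at least 8 bases within 25 bases of the start was found in 37 of 66 (56.1%), against 23.7% of all 20262 promoters. CCGGAAG on either strand occurred in 36.4%, against 11.1%. CCGCCC, a GC box, occurred in 60.6%, against 42.9%, and AAGATGGC, part of the YY1 site, in 7.58%, against 3.08%. TATAAA occurred in 9.09%, against 13.3%, and TATATA in 9.09%, against 5.20%. Each motif was searched in 300 bases, from 250 before to 50 after the start, on both strands, and a match is letters only.

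Open chromatin at these promoters, as a part of all promoter counts, was nearly level between the libraries. Peaks were called in each library on its own, and 81 members had a peak within 1000 bp of the start in all 3, with covered lengths of 73.0, 73.1 and 73.6 kb in WIF1-2w, WIF1-4w and Ctrl. As CPM of all counts in promoter peaks, rod-like nuclei had 9549 in WIF1-2w, 9573 in WIF1-4w and 9713 in Ctrl, ratios of 0.983 (0.975 to 0.991) and 0.986 (0.978 to 0.993). Bipolar-like nuclei had 8424, 8765 and 8837, ratios of 0.953 (0.941 to 0.965) and 0.992 (0.979 to 1.0043). Müller-like nuclei had 7860, 8135 and 8273, ratios of 0.9501 and 0.983. Cone-like nuclei had ratios of 0.974 and 1.05, amacrine-like nuclei 1.09 and 1.03 and endothelial-like nuclei 0.967 and 0.920. These 12 ratios ran from 0.920 to 1.09, while the RNA ratios of the same classes ran from 0.599 to 1.21. The promoter ratios depend on the total used. As CPM of all ATAC counts, Müller-like nuclei had 3849, 4679 and 5021 in WIF1-2w, WIF1-4w and Ctrl. On that scale bipolar-like nuclei had 4523, 5043 and 5295, rod-like nuclei 6151, 6238 and 6351, and amacrine-like nuclei 5109, 4954 and 4900.

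Gene by gene, 0 of 81 promoters were called lower or higher in rod-like nuclei at 2 weeks, against 10.1% and 5.76% of all genes, and 0 at 4 weeks, against 8.37% and 1.59%. In bipolar-like nuclei 2 were called lower and 0 higher in WIF1-2w, against 6.18% and 4.76%, and 0 in WIF1-4w, against 5.96% and 1.08%. Müller-like nuclei, with fewer counts, had 10 lower and 6 higher of 81 in WIF1-2w, against 11.9% and 16.6%, and 6 lower and 8 higher of 75 in WIF1-4w, against 10.3% and 14.6%.

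Several genes at the ends of the RNA range lay inside the promoter range, and others did not. Rps23, with an RNA ratio of 0.366 in rod-like nuclei of WIF1-2w, had a promoter ratio of 1.17, and Rpl13a, with 0.461, had 0.983. Rpl37, whose RNA ratio was 1.28, had a promoter ratio of 0.860, and Rpl38, with 1.17, had 0.953. The lowest promoter ratios in rod-like nuclei of WIF1-2w were 0.668 for Rpl19 and 0.696 for Rpl7, whose RNA ratio of 0.437 was also among the lowest, and the highest was 1.47 for Rps24. At 4 weeks the lowest was 0.766 for Rpl24 and the highest 1.27 for Rps4x, a gene whose RNA ratio of 0.545 was among the 3 lowest.

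**Figure D5:**
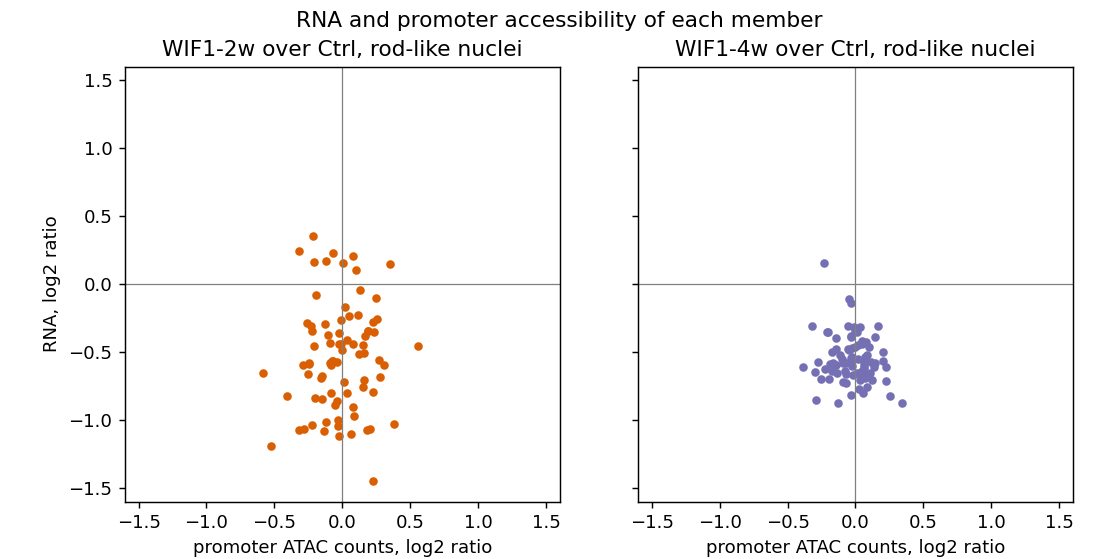
Log2 ratio to Ctrl of RNA (y axis) against that of promoter ATAC counts (x axis) in rod-like nuclei, each point a member, WIF1-2w left and WIF1-4w right. Points spread down the RNA axis, to −1.45 in WIF1-2w, while on the promoter axis their medians are −0.03 in WIF1-2w and −0.02 in WIF1-4w.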

How the data were processed

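RNA and open chromatin were read in nuclei of mouse retina, 1 library per group. The deposited values are raw counts, per the file headers: for every barcode, the UMIs of a gene and the ATAC counts of a peak. The submitters' processing notes name Cell Ranger ARC 2.0.1, the build mm10, and, with no role, Seurat 5.0.1 and Signac 1.12.0. Peaks were called in each library separately. The gene list came by symbol from the gene names in the files, and the members, related lists and tests were chosen with earlier results of these data known.

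Barcodes under 500 UMIs, under 300 detected genes or over 10% mitochondrial share were removed. Library totals ran from 14568384 to 21805441 RNA UMIs and from 37525307 to 90490537 ATAC counts. Doublets were scored with the Scrublet method, and the highest scores were removed at 0.8% per 1000 barcodes (1053 in WIF1-2w, 716 in WIF1-4w and 511 in Ctrl). Clustering used 1996 variable genes, 30 principal components, 15 neighbours and Leiden resolution 1 (Python 3.11.15, scanpy 1.11.5, leidenalg 0.10.2, scikit-learn 1.9.0). A cluster was named when at least 3 fixed markers of a class were enriched. It stayed unnamed where another class had at least 75% as many and its 10 leading genes held no marker of the class. This limit was chosen after the data were seen. Cluster 8, named amacrine-like, had 9 amacrine and 8 rod markers enriched, with 1 amacrine marker among its leading genes.

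Free RNA in the droplets was not removed. UMIs were summed by class and library and given as CPM with exact Poisson intervals, and ratios have exact conditional binomial (Clopper-Pearson) intervals at 95% (numpy 2.4.6, scipy 1.17.1, pandas 2.3.3). Both cover counting error only. A gene under 3 UMIs was set to 3 for ranking, calls and summaries over genes, and the ratios and intervals of single genes use the counts unchanged. Fold changes are ratios of the WIF1 library to Ctrl, with no test because groups have 1 library, and the calculation was tested on simulated counts. Named genes are those with most UMIs, the 3 lowest and 3 highest ratios in each of 3 classes (rod-like nuclei, bipolar-like nuclei and Müller-like nuclei), the paralogs with their partners, and genes of the related lists with most UMIs. 1 member named by this rule and 1 marker gene are not reported here by name. Other genes named for the endothelial-like class, and the clusters taken apart, were chosen after their values were seen. Promoter counts were divided by all promoter counts of the 14344 genes with a peak within 1000 bp of the start in every library. Promoter sequences are RefSeq on GRCm38.p6. Figures were drawn with matplotlib 3.10.9.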

Additional observations from a re-analysis of the deposited data

Results flagged for a closer look

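Endothelial-like nuclei had more ribosomal protein RNA in WIF1-2w than in Ctrl (1.21), while rod-like nuclei had less. The difference between the classes was not tested, and endothelial-like nuclei numbered 55 in WIF1-2w and 68 in Ctrl. Bipolar cluster 12 had a ratio of 1.21 (1.205) in WIF1-2w, where each of the other bipolar-like clusters was below 1, and this difference was not tested either.

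Some members stood above Ctrl in WIF1-2w and below it in WIF1-4w, with counting intervals clear of 1 on both sides. In rod-like nuclei Rpl41 had 1.13 in WIF1-2w and 0.682 in WIF1-4w, Rps26 had 1.15 and 0.716, Rpl38 had 1.17 and 0.748, Rpl37 had 1.28 and 0.758, and Rps28 had 1.11 and 0.788. In bipolar-like nuclei Rps21 had 1.79 and 0.671, Rpl37 had 1.68 and 0.828, Rps26 had 1.48 and 0.774, and Rpl38 had 1.46 and 0.858. Rpl41 had 1.33 and 0.797 there, Rpl39 had 1.30 and 0.792, Rpl36 had 1.26 and 0.795, Rpl35a had 1.24 and 0.825, and Rpl6 had 1.17 and 0.826. Both times share the Ctrl library, and the differences between times were not tested.

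Barcodes left out for low depth were rich in ribosomal protein RNA. In WIF1-2w, 718 barcodes under 100 UMIs held 33919 CPM, 1625 barcodes of 100 to 299 UMIs held 28043 CPM and 1057 barcodes of 300 to 499 UMIs held 17262 CPM. In WIF1-4w, 294 barcodes of 300 to 499 UMIs held 16913 CPM. Barcodes of at least 500 UMIs held 13826 CPM in WIF1-2w, 12935 CPM in WIF1-4w and 17569 CPM in Ctrl, and Ctrl had 0 barcodes under 500 UMIs.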

How the results depend on the processing

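No paired analysis was possible because each group has 1 library, and for the same reason no library could be left out. Ratios of summed RNA below are WIF1-2w over Ctrl, WIF1-4w over Ctrl and, where a set has 3 values, WIF1-4w over WIF1-2w last, whose values as reported were 0.978 in rod-like, 0.811 in bipolar-like and 1.14 in Müller-like nuclei. Without mitochondrial UMIs in the total they were 0.677 and 0.665 in rod-like and 0.922 and 0.746 in bipolar-like nuclei. Without mitochondrial, ribosomal RNA and immunoglobulin UMIs they were 0.673 and 0.663, and 0.919 and 0.745. As UMIs per nucleus they were 0.402, 0.595 and 1.48 in rod-like, 0.565, 0.662 and 1.17 in bipolar-like, and 0.441, 0.699 and 1.58 in Müller-like nuclei, and in endothelial-like nuclei 0.924 for WIF1-2w and 1.06 for WIF1-4w over WIF1-2w, so the order of the times turned round in rod-like, bipolar-like and endothelial-like nuclei.

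Among nuclei of at most 1% mitochondrial UMIs, ratios were 0.896 and 0.876 in rod-like nuclei, 1.39, 1.06 and 0.762 in bipolar-like nuclei, 0.759, 0.922 and 1.21 in Müller-like nuclei and 0.821 in WIF1-2w and 1.24 in WIF1-4w over Ctrl in amacrine-like nuclei, which ends the lower level in bipolar-like nuclei at both times and in amacrine-like nuclei of WIF1-4w. Nuclei of at least 1000 UMIs gave 0.643 for WIF1-4w over Ctrl and 0.927 between the times in rod-like nuclei. With the class taken from the highest marker score, ratios were 0.629, 0.632 and 1.0045 in rod-like, 0.967 and 0.779 in bipolar-like, and 0.690 for WIF1-4w over Ctrl and 1.11 between the times in Müller-like nuclei. Amacrine-like ratios under that setting are not given here, so the amacrine-like values above hold for the clustered class only. With called doublets kept, Müller-like ratios were 0.710, 0.776 and 1.09. Without the 5 members with most UMIs the bipolar-like ratio in WIF1-4w was 0.765. The next settings were added after seeing the data: without cluster 4 rod-like ratios were 0.811 and 0.775, and without cluster 12 bipolar-like ratios were 0.822 and 0.719.

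Weighting by bins of UMIs per nucleus instead of mitochondrial share gave 0.688 and 0.662 in rod-like, 0.952 and 0.762 in bipolar-like and 0.669 and 0.721 in Müller-like nuclei, and keeping doublets gave 0.956 in Müller-like nuclei of WIF1-2w. Against all ATAC counts, promoter ratios were 0.968 in WIF1-2w and 1.01 between the times in rod-like, 0.854, 0.952 and 1.11 in bipolar-like, and 0.767, 0.932 and 1.22 in Müller-like nuclei. At 2-fold, members called lower numbered 14, 0 and 0 in rod-like nuclei, 0, 0 and 2 in bipolar-like nuclei and 18, 1 and 0 in Müller-like nuclei, where 3.71%, 1.05% and 2.96% of all genes were, and members called higher between the times numbered 0 in rod-like and 1 in Müller-like nuclei, with 0 higher in bipolar-like nuclei of WIF1-2w. With at least 100 UMIs, Müller-like members called lower were 11 of 30, 14 of 51 and 0 of 52, against 6.87%, 3.74% and 6.62% of all genes, and 8 of 52 were higher between the times, against 10.1%. With at least 10 UMIs 1 of 82 was higher in WIF1-4w, against 15.3%. With those 3 kinds of UMIs left out, 7 of 83 bipolar-like members were lower in WIF1-4w, against 4.01%. The cause of these shifts was not tested, except that fewer members pass a higher fold or UMI minimum by construction. Of the remaining values of these classes, 34 of summed RNA, 54 of member counts, 10 of promoters and 5 of weighted ratios moved within their counting interval or within 1.5 times. Müller-like, amacrine-like and endothelial-like values rest on few nuclei, and their single members on few UMIs.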
